A study of Mus musculus with 8 samples.

Results

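Epicardial cells grown from hearts of E12.5 mouse embryos were given 3 growth factors together for 2 days and compared with a culture given vehicle over the same 2 days. The comparison used 2 of the 8 arrays of the series, chosen by their titles, and covered the 9183 genes, of 19057 with a named probe, that reached a detection p below 0.01 in either culture. The 3-factor culture was wild type, of mixed C57 background, and received 20 ng/ml PDGFBB (PDGF-BB), 25 ng/ml bFGF (FGF2) and 10 ng/ml hTGFb1 (TGF-beta1). The vehicle culture was wild type too, of the same background and time. Both were primary cultures: cells crept out of the isolated hearts for 3 days, the hearts were taken away, and the remaining cells were kept for 2 more days, the days of treatment. Each array held RNA pooled from at least 3 cultures, so there was 1 array a side and no replicate, and no difference below has an error of its own. No single-factor arm with TGF-beta1 or bFGF was among the arrays, so the part of each factor in a difference cannot be told apart.

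Further cultures are set beside these. Wild type cultures received 20 ng/ml PDGF-BB alone for the last 12 h or 24 h, and a control culture, wild type by its labels and marked as vehicle-treated, was grown for the same 3 and 2 days. The label of the control culture gives a heart without the conotruncal region as its source; it was taken as a culture from its title and the series design. The remaining arrays held a culture and hearts with epicardial knockout of both PDGF receptor genes and control hearts, and entered only the normalization and the choice of 1 probe per gene.

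PDGF-BB signals through the receptor tyrosine kinases PDGFRα and PDGFRβ, and bFGF through FGF receptors, and both kinds of receptor drive the ERK kinase cascade. TGF-beta1 signals through the receptor kinases TGFBR1 and TGFBR2 to the transcription factors SMAD2 and SMAD3. In the developing heart the epicardium is a mesothelial sheet whose cells can undergo epithelial to mesenchymal transition (EMT) and give rise to cardiac fibroblasts and to smooth muscle and pericytes of the coronary vessels, and ligands of all 3 families are known to act on that step.

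Levels are log2 values of background-corrected, quantile-normalized bead intensity, and a difference is the level in the 3-factor culture minus that in the vehicle culture. A gene was called, and is said to have risen or fallen, where the difference was at least 1 on that scale (2-fold) and the gene was detected on the brighter array. Over all measured genes, 950 of 9183 were called (10.3%), 486 higher (5.29%) and 464 lower (5.05%). The median difference was -0.0038, and the middle 90% of genes lay between -1.01 and 1.04. A difference of at least 2 was reached by 101 called genes that were higher and 82 that were lower. Of the genes called higher, 147 had no probe detected in the vehicle culture, and of those called lower, 151 had none detected in the 3-factor culture. For these the fold is a lower bound set by the detection limit. Where that bound is under 2, the call rests on a level below the limit, and a 2-fold difference is not established. Where a called gene had a further measured probe, all such probes had the sign of the call in 153 of 156 genes that rose and in 150 of 155 that fell.

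**Figure D1:**
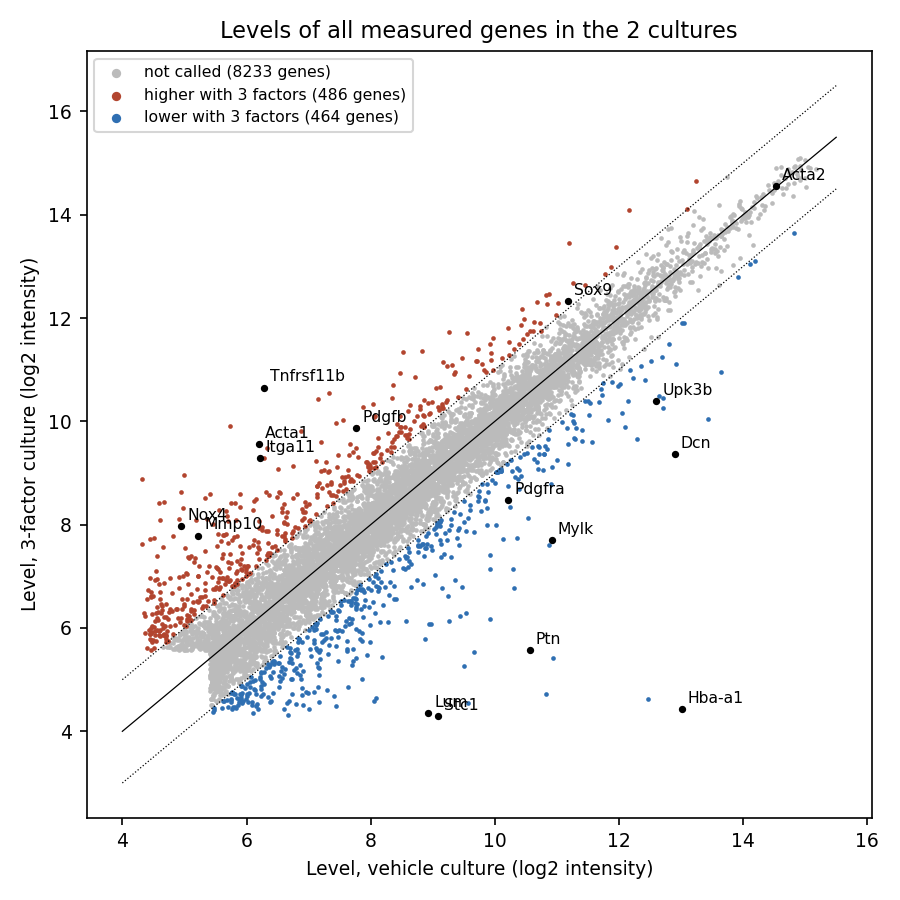
Level of each measured gene in the 3-factor culture (vertical axis) and in the vehicle culture (horizontal axis), both in log2 intensity, 1 array each. The solid line marks equal levels and the dotted lines a difference of 1; 486 genes were called higher and 464 lower, Tnfrsf11b and Nox4 lie far above the line, and Ptn, Lum, Stc1 and Hba-a1 far below it.

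Untreated cultures also differed from each other, here across 2 sets of arrays. The vehicle culture differed from the control culture by at least 2-fold in 1031 of 9757 measured genes (10.6%), a share like that between the 3-factor and vehicle cultures. Set against the control culture, the 3-factor culture had 1633 of 9742 genes called (16.8%). Of the 486 genes that rose, 246 also lay at least 1 above the control culture and 6 at least 1 below it. Of the 464 that fell, 295 also lay at least 1 below the control culture and 2 at least 1 above it. The authors' processed values show 2 sets of 4 arrays, with the 3-factor and vehicle cultures in one and the control and PDGF-BB cultures in the other. The brightest non-normalized intensity was 27914.19 on the 3-factor and 26936.53 on the vehicle array, against 45001.63 to 53265.64 in the set of the control culture. Differences of the 3-factor or the vehicle culture from the control culture therefore also hold any difference between the sets. Those of the 3-factor from the vehicle culture do not. The spread within a group made of the vehicle and control cultures holds it too. With the vehicle and control cultures as a group of 2, limma's moderated test, on 1 residual degree of freedom, gave no adjusted p below 0.05 (0 of 9896 genes) and 728 unadjusted ones below it, of which 346 were higher and 382 lower with the 3 factors. The smallest adjusted p was 0.105.

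The vehicle array stood apart from the others in red cell and macrophage genes, and these were read first. All 6 measured globin genes of an erythroid list were lower in the 3-factor culture. Hba-a1, an adult alpha globin, had a level of 4.43 in the 3-factor culture, where it was not detected, and 8.79 and 10.85 with PDGF-BB for 12 h and 24 h, against 13.01 in the vehicle and 8.97 in the control culture. Hbb-y, an embryonic beta-like globin, had a level of 4.63 in the 3-factor culture and 8.30 and 10.27 with PDGF-BB, against 12.47 and 8.36 in the vehicle and control cultures. The vehicle culture was the highest and the 3-factor culture the lowest of the 5 for both genes. The smallest fall that the detection limit allows was 174-fold for Hba-a1 and 120-fold for Hbb-y. Summed on the linear scale, the 11 erythroid genes with a probe came to 314.4 in the 3-factor culture, 1159.6 after 12 h and 4148.9 after 24 h of PDGF-BB, 18748.2 in the vehicle culture and 1281.9 in the control culture. The erythroid regulators Gata1 and Klf1 and the heme enzyme Alas2 were not detected on either array. Globin genes are close copies of each other, so their probes may share signal.

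Macrophage and leukocyte genes went the other way. Of 18 measured members of 19 with a probe, 8 rose and 0 fell, against 5.29% called higher and 5.05% called lower over all genes. The list's median was 0.96, beside -0.0038 over all genes. Lyz2 (lysozyme) had a level of 14.10 in the 3-factor culture and 14.42 and 14.17 with PDGF-BB, against 12.16 in the vehicle and 14.65 in the control culture. Aif1, an actin-binding protein of macrophages, had a level of 10.93 in the 3-factor culture and 9.91 and 9.81 with PDGF-BB, against 8.47 and 9.99 in the vehicle and control cultures. The complement gene C1qb had a level of 12.65 in the 3-factor culture and 11.97 and 11.71 with PDGF-BB, against 11.45 and 12.02 in the vehicle and control cultures. The vehicle culture was the lowest of the 5 for all 3 genes, while the 3-factor culture was highest for Aif1 and C1qb and lay within the others for Lyz2. The summed linear level of the list was 81315.0 in the 3-factor culture, 83585.1 after 12 h and 74905.4 after 24 h of PDGF-BB, 37264.4 in the vehicle culture and 90677.8 in the control culture. Against the control culture the list's median difference was -0.18. In that comparison 0 of 19 measured members were called higher and 5 lower, where 16.8% of all genes were called. The macrophage genes Adgre1 (1.21), C1qa (1.51), C1qc (1.09) and Fcgr3 (1.05) rose as well, and Itgam rose at least 1.95-fold; Adgre1 lay at 9.62 in the control culture, above both its level of 7.78 with the 3 factors and its 6.57 with vehicle. The leukocyte gene Ptprc was not detected on either array. In bulk RNA of this kind, fewer cells of a type and less RNA per cell cannot be told apart.

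Markers of other cell types were read in the same way. Of 23 cardiomyocyte genes with a probe, 12 were measured, of which 6 rose and 3 fell. Over all genes, 5.29% were called higher and 5.05% lower. Against the control culture 1 of 14 measured members was called higher and 2 lower, where 16.8% of all genes were called. The summed linear level of the list was 5163.5 in the 3-factor culture, 7786.3 in the vehicle culture and 6613.6 in the control culture. The cardiac actin Actc1 had a level of 8.26 in the 3-factor culture and 8.45 and 6.51 with PDGF-BB, against 5.67 in the vehicle and 7.37 in the control culture. The atrial light chain Myl7 moved the other way, with 10.69 in the 3-factor culture and 11.43 and 11.68 with PDGF-BB, against 11.98 and 11.68 in the vehicle and control cultures. Other members of the list, among them Ttn, Ryr2, Myh7 and Nkx2-5, were not detected on either array. Of 17 endothelial genes with a probe, 6 were measured and none was called, and Pecam1, Cdh5 and Kdr were not detected; of 7 neural and glial genes none was measured. The 12 measured reference genes, among them Gapdh, Actb and Ppia, had differences of -0.08 to 0.59 and none was called. Xist, the transcript of the inactive X chromosome, had a level of 6.08 with the 3 factors and 7.10 with vehicle. The Y-linked Eif2s3y had 6.34 with the 3 factors and 5.79 with vehicle, and each was detected on both arrays. Of 3 measured sex-linked genes 0 rose and 1 fell. Against the control culture 0 of 4 were called higher and 3 lower.

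**Figure D2:**
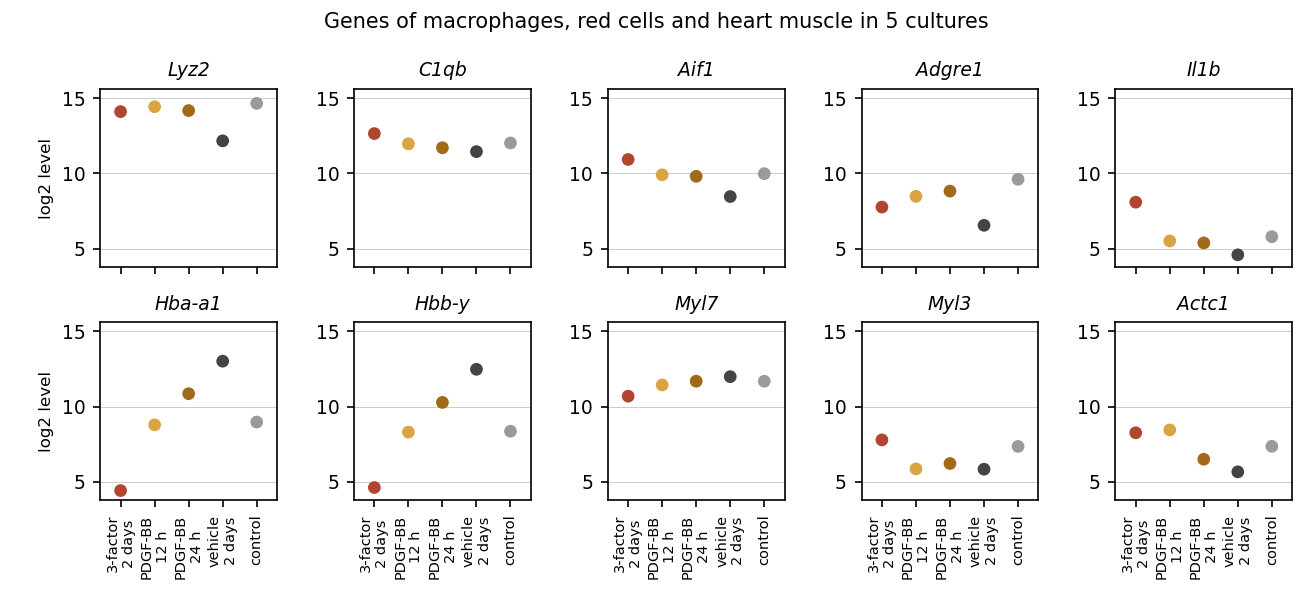
Levels (log2 intensity, 1 array per culture) of 5 macrophage and cytokine genes in the upper row and of 2 globin and 3 heart muscle genes in the lower row, in the 3-factor culture, both PDGF-BB cultures, the vehicle culture and the control culture. The vehicle culture is the lowest for Lyz2, C1qb, Aif1, Adgre1 and Il1b and the highest for Hba-a1 and Hbb-y.

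Among the ligands and receptors of the added factors, the PDGF receptor gene Pdgfra fell and the ligand gene Pdgfb rose. Pdgfra (Entrez gene 18595, chromosome 5), the alpha receptor, had a level of 8.47 in the 3-factor culture and 11.08 and 10.95 with PDGF-BB alone, against 10.21 in the vehicle and 11.61 in the control culture. The 3-factor culture was the lowest of the 5, and its difference from the vehicle culture was -1.74, a 3.34-fold fall. Pdgfrb, the beta receptor, had 6.99 in the 3-factor culture and 6.44 and 6.13 with PDGF-BB, against 6.18 and 6.12 in the vehicle and control cultures, a difference of 0.81 from vehicle that was not called. Pdgfb, which encodes the chain of the added ligand, had 9.88 in the 3-factor culture and 7.62 and 7.82 with PDGF-BB, against 7.76 and 7.66 in the vehicle and control cultures. The other 4 cultures lay within 0.20 of each other for Pdgfb, and the 3-factor culture was 4.32-fold above vehicle. The ligand genes Pdgfa and Pdgfc had differences of 0.74 and -0.33 and were not called. In all, 1 of 5 measured PDGF genes rose and 1 fell, where 5.29% of all genes were called higher and 5.05% lower.

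Of 9 measured FGF ligand and receptor genes, 3 fell and 0 rose, against 5.05% called lower and 5.29% called higher over all genes. The list's median was -0.14. Fgfr2, a receptor, had a level of 10.11 in the 3-factor culture and 12.13 and 11.74 with PDGF-BB, against 11.52 in the vehicle and 12.34 in the control culture, so that the 3-factor culture was again the lowest. The receptor gene Fgfr1 had levels of 5.83 with the 3 factors and 5.44 with vehicle and was not called, while Fgfr3 and Fgfr4 were not detected on either array. Fgf21, a secreted endocrine FGF, had 7.74 in the 3-factor culture and 9.38 in the vehicle culture. Its level in the control culture was 8.09, and its difference from that culture was not as large as 1. Fgf16, a paracrine FGF, fell at least 2.30-fold. Fgf2 itself, the gene of the added factor, differed by 0.28, and Fgf9, an epicardial FGF, by less than 0.01.

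Ligands, receptors and SMADs of the TGF-beta pathway were called at a share near that of all genes. Of the 15 that were measured, Inhba alone rose and 0 fell, against 5.29% called higher and 5.05% called lower over all genes. The median was 0.26. The type I receptor Tgfbr1 had levels of 11.54 with the 3 factors and 10.98 with vehicle, and the type II receptor Tgfbr2 had 10.87 with the 3 factors and 11.12 with vehicle. Smad2 and Smad3 differed by -0.02 and -0.04, and the ligand genes Tgfb1, Tgfb2 and Tgfb3 by 0.77, -0.48 and 0.12. Inhba, the activin A subunit, was the gene that rose, with 11.76 in the 3-factor culture and 9.56 and 9.80 with PDGF-BB, against 10.62 in the vehicle and 8.76 in the control culture.

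Known targets of TGF-beta signalling were higher with the 3 factors. Of 17 measured targets 8 rose and 0 fell, against 5.29% called higher and 5.05% called lower over all genes, and the median difference was 0.80. Nox4, an NADPH oxidase induced by TGF-beta, had a level of 7.98 in the 3-factor culture and 4.55 and 4.88 with PDGF-BB, against 4.95 in the vehicle and 4.98 in the control culture. It was not detected in the vehicle culture, and the rise there was at least 5.92-fold. Itga11, an integrin that binds collagen, had 9.28 in the 3-factor culture and 8.35 and 7.37 with PDGF-BB, against 6.21 and 7.85 in the vehicle and control cultures, an 8.41-fold rise over vehicle with a difference of 2.89 for its other probe. The 3-factor culture was the highest of the 5 for both genes. Pmepa1, a feedback inhibitor of SMAD signalling, rose by 2.02, the matrix protein gene Tgfbi by 1.45, the transcription factor genes Bhlhe40 and Tgif1 by 1.43 and 1.28, the protease inhibitor Timp1 by 1.41 and the AP-1 subunit Junb by 1.13. Tgfbi did not stand above the control culture, with 11.87 in the 3-factor and 11.86 in the control culture. The targets Ccn2 (-0.13), Col1a1 (-0.26), Fn1 (0.26) and Tagln (-0.49) were not called. With PDGF-BB alone for 24 h, 0 of 15 measured targets were called against the control culture, where 0.412% of all genes were called higher and 0.815% lower, and their median difference was 0.16.

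Inhibitors of activins and BMPs and the Id genes moved in different directions. The activin-binding protein gene Fst (follistatin) had a level of 8.59 in the 3-factor culture and 7.31 and 6.75 with PDGF-BB, against 5.42 in the vehicle and 7.66 in the control culture. Highest in the 3-factor and lowest in the vehicle culture, its rise of 3.18 over vehicle became 0.93 over control. Its relative Fstl3 rose by 2.20, with 8.57 in the 3-factor culture, 6.37 in the vehicle culture and 5.69 in the control culture. The ligand gene Bmp4 fell by 1.57, with 9.83 in the 3-factor culture and 11.32 and 11.03 with PDGF-BB, against 11.40 and 11.96 in the vehicle and control cultures. The Id genes encode inhibitors of helix-loop-helix transcription factors and are induced by BMP signalling. Id2 fell by 1.56 and Id3 by 1.08, and Id1 and Id4 differed by -0.64 and -0.73 and were not called. The list held 2 genes that rose and 3 that fell among 15 measured, with a median of -0.04. Over all genes, 5.29% were called higher and 5.05% lower.

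Feedback and target genes of the ERK cascade were read after the 2 days of treatment. Of the 12 that were measured, 2 fell and 0 rose, against 5.05% called lower and 5.29% called higher over all genes. The median was 0.20. Against the control culture 2 of 14 were called higher, Dusp5 (1.99) and Ier3 (1.37), and 1 lower, Egr1 (-1.18). Of all genes, 16.8% were called there. The feedback inhibitor Spry4 had levels of 5.58 with the 3 factors and 6.77 with vehicle, and the immediate-early factor gene Egr1 had 10.51 with the 3 factors and 11.73 with vehicle. The ERK phosphatase genes Dusp4, Dusp5 and Dusp6 differed by 0.79, 0.89 and 0.05, and the ETS factor genes Etv4 and Etv5 by 0.23 and 0.19. Among 16 measured immediate-early genes, Egr2 and Junb rose and Egr1 and Fos fell. Egr2 had 8.41 in the 3-factor culture and 7.17 and 7.40 with PDGF-BB, against 5.82 in the vehicle and 6.87 in the control culture.

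**Figure D3:**
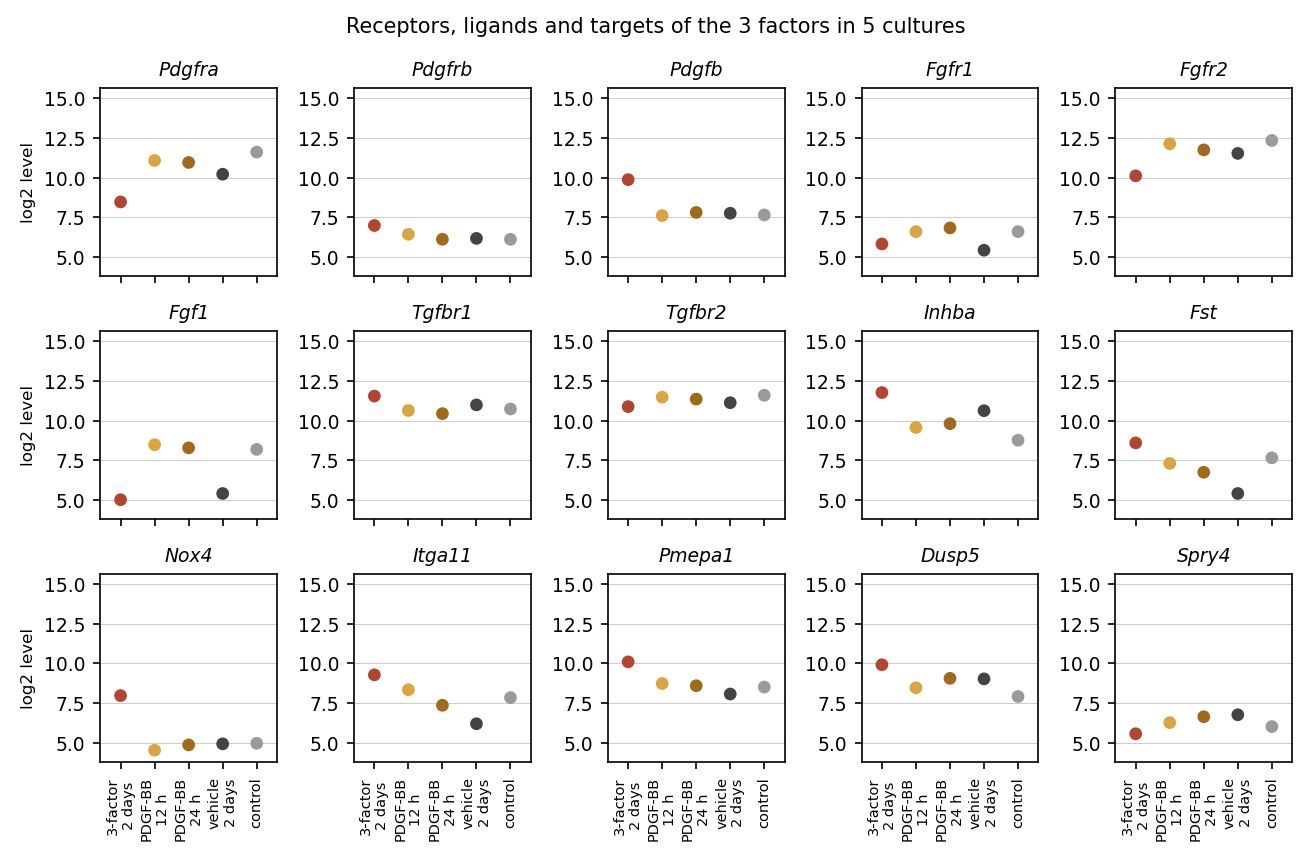
Levels (log2 intensity, 1 array per culture) of ligand, receptor and target genes of the added factors in the 3-factor, PDGF-BB, vehicle and control cultures. The 3-factor culture is the lowest for Pdgfra and Fgfr2 and the highest for Pdgfb, Inhba, Fst, Nox4, Itga11 and Pmepa1.

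Of 18 epicardial and mesothelial genes with a probe, 14 were measured, of which 10 fell and 1 rose with the 3 factors. Over all genes, 5.05% were called lower and 5.29% higher. The list's median difference was -1.32, or -0.86 with the authors' processed values. Gpm6a, Lrrn4, Gata4 and Podxl were not detected in the 3-factor culture. Upk3b, a mesothelial uroplakin, had a level of 10.39 in the 3-factor culture and 12.84 and 12.93 with PDGF-BB, against 12.60 in the vehicle and 13.20 in the control culture. Tcf21, a transcription factor of epicardial cells and cardiac fibroblast precursors, had 10.40 in the 3-factor culture and 13.06 and 12.66 with PDGF-BB, against 12.15 and 12.93 in the vehicle and control cultures. Bnc1, a zinc finger factor of mesothelium, had 9.17 in the 3-factor culture and 10.81 and 10.74 with PDGF-BB, against 11.18 and 11.10 in the vehicle and control cultures. For all 3 genes the 3-factor culture was the lowest of the 5 and the other cultures lay within 0.91 of each other. The membrane genes Lrrn4 and Gpm6a fell at least 2.96-fold and at least 2.35-fold, and the cardiac transcription factor gene Gata4 at least 1.97-fold. Upk1b fell by 1.80, Gata6 by 1.11, the adhesion gene Alcam by 1.29 and the Wnt agonist Rspo1 by 1.36. Aldh1a2, the retinoic acid synthesis enzyme that marks the epicardium, differed by 0.07, and mesothelin (Msln) by -0.79. Anxa8, an annexin, rose by 1.76. Bnc2, Itga4, Sema3d and the epicardial factor Tbx18 were not detected on either array. Against the control culture, 10 of 14 measured members were called lower and 0 higher, with a median of -2.09. Of all genes, 16.8% were called there.

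Epithelial genes gave no common direction. Of 11 measured junction and keratin genes, 2 rose and 3 fell, with a median of -0.11. Over all genes, 5.29% were called higher and 5.05% lower. The tight junction genes Cldn3 and Cldn15 fell at least 3.33-fold and at least 4.36-fold, while Cldn1 rose at least 1.28-fold and the desmosome gene Jup at least 1.53-fold. Krt19 had levels of 5.96 in the 3-factor culture, 7.43 in the vehicle culture and 4.87 in the control culture, so its fall was against vehicle alone. The keratins Krt7, Krt8, Krt14 and Krt18 differed by -0.70, -0.10, -0.69 and 0.82 and were not called.

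Transcription factors known for driving EMT gave no common direction against vehicle. Of 12 measured, 1 rose and 1 fell, against 5.29% called higher and 5.05% called lower over all genes. The median difference was -0.08. Against the control culture 3 of 12 were called higher and 1 lower, with a median of 0.23. Of all genes, 16.8% were called there. Snai1 differed by -0.11 from the vehicle culture and by 1.23 from the control culture. Snai2 had 7.06 with the 3 factors and 7.36 with vehicle, and Twist1 had 8.48 with the 3 factors and 8.73 with vehicle. Zeb1 and Zeb2 differed by -0.37 and 0.17. Sox9, a factor of EMT and cartilage, had 12.33 in the 3-factor culture and 10.57 and about 11 with PDGF-BB, against 11.18 in the vehicle and 9.45 in the control culture. Its level was highest in the 3-factor and lowest in the control culture, and the 2 untreated cultures differed more than the 3-factor and vehicle cultures did. Another Sox9 probe gave a difference of 0.55 from vehicle, short of a call. Prrx1, a mesenchymal homeobox factor, had 5.60 in the 3-factor culture and 7.38 and 7.53 with PDGF-BB, against 7.02 and 7.61 in the vehicle and control cultures, with -1.31 and -0.66 from vehicle for its other probes.

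Fibroblast genes were mostly lower. Of 14 measured mesenchymal and fibroblast genes, 7 fell and 1 rose, where 5.05% of all genes were called lower and 5.29% higher. In the list 10 lay below 0, and the median was -0.98, or -0.35 with no detection filter. The members Tcf21, Pdgfra, Prrx1, Dcn and Lum stand in other lists too. Thy1, a surface marker of fibroblasts, had 10.44 in the 3-factor culture and 12.83 and 12.97 with PDGF-BB, against 12.72 in both the vehicle and control cultures. The intermediate filament gene Vim differed by 0.09 and the cadherin gene Cdh11 by 0.34, and S100a4 fell by 1.02. Fbln2, a fibulin of basement membranes, was the gene that rose, with 14.11 in the 3-factor culture, 13.10 in the vehicle culture and 13.68 in the control culture, and with 0.31 and 1.40 from vehicle for its other probes.

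Smooth muscle genes did not rise in the 3-factor culture. Of 16 measured contractile genes, 0 rose and 4 fell, against 5.29% called higher and 5.05% called lower over all genes. The list's median difference was -0.20. Acta2, smooth muscle actin, had a level of 14.55 in the 3-factor culture and 14.95 at both times with PDGF-BB, against 14.52 in the vehicle and 15.11 in the control culture, and Tagln (SM22) had 11.45 with the 3 factors and 11.93 with vehicle. Mylk, myosin light chain kinase, had 7.70 in the 3-factor culture and 12.13 and 11.96 with PDGF-BB, against 10.92 in the vehicle and 12.71 in the control culture. The 3-factor culture was the lowest by over 3, and its other 2 probes had differences of -3.22 and -3.18 from vehicle. Des (desmin), Actg2 (enteric smooth muscle actin) and Myh11 (smooth muscle myosin) fell by 1.38, 1.31 and 1.01 against vehicle. Against the control culture, of the other set of arrays, they gave 0.54, -0.30 and 0.98, so the fall of these 3 was against vehicle alone. Over the whole list 2 genes were called higher and 1 lower against control, with a median of 0.36. Of all genes, 16.8% were called there. The coactivator gene Myocd and its partner Srf differed by -0.14 and -0.12. The 4 measured pericyte genes Pdgfrb, Cspg4, Mcam and Notch3 had differences of 0.67 to just under 1 from vehicle, and none was called. Notch3 was not detected in the vehicle culture. Against the control culture, of 5 measured pericyte genes, Cspg4 (2.20) and Mcam (1.02) were called higher and Anpep (-1.87) lower. Acta1, the skeletal muscle actin gene, rose, with 9.56 in the 3-factor culture and 6.24 and 6.01 with PDGF-BB, against 6.20 in the vehicle and 5.90 in the control culture. The other 4 cultures lay within 0.34 of each other, and the rise over vehicle was 10.2-fold. Of 27 measured actin cytoskeleton and focal adhesion genes 0 rose and 1 fell (Diaph3, a formin), with a median of 0.07.

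**Figure D4:**
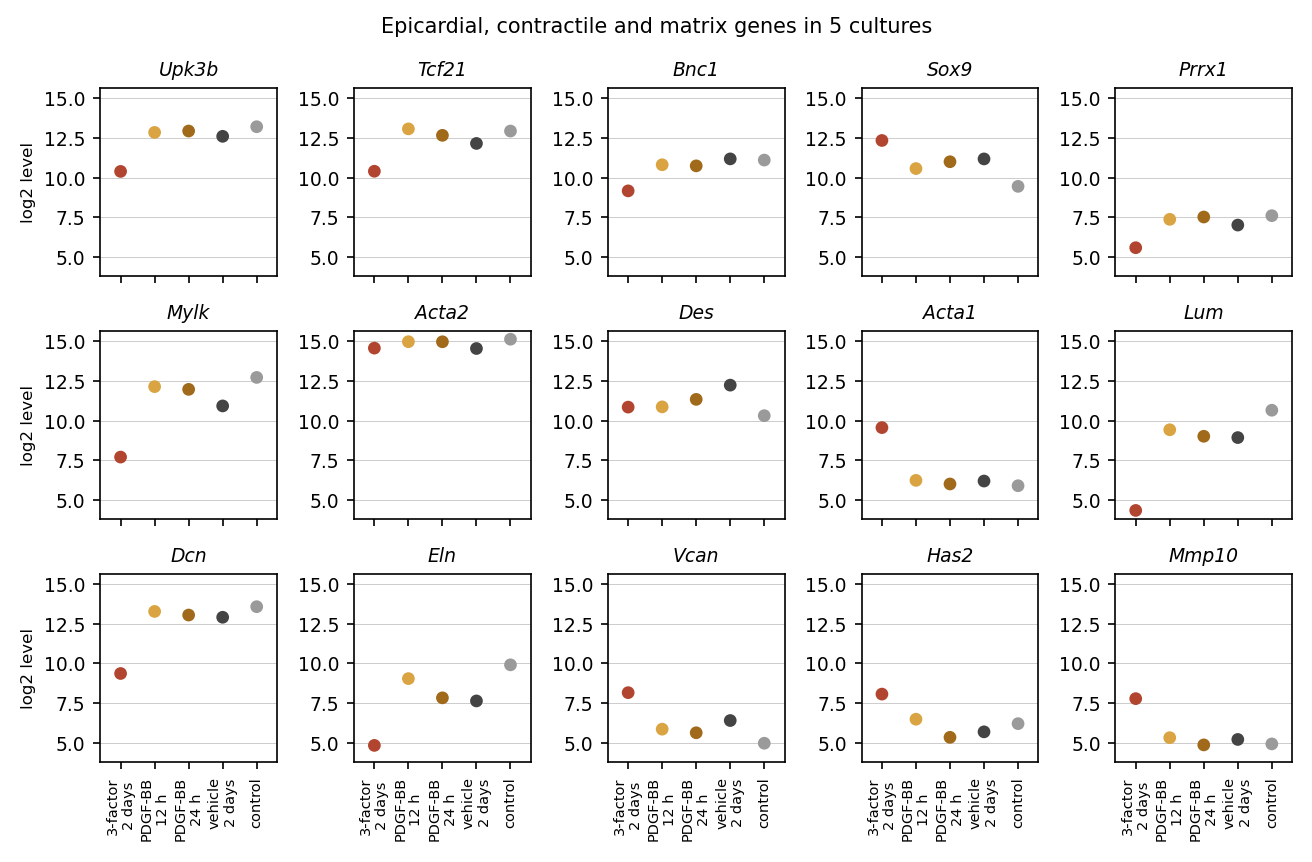
Levels (log2 intensity, 1 array per culture) of epicardial, EMT, contractile and matrix genes in the 3-factor, PDGF-BB, vehicle and control cultures. The 3-factor culture is the lowest for Upk3b, Tcf21, Bnc1, Prrx1, Mylk, Lum, Dcn and Eln and the highest for Sox9, Acta1, Vcan, Has2 and Mmp10; Acta2 lies between 14.52 and 15.11 in all 5.

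Promoter sequence is shown for the contractile genes that fell and have an entry among RefSeq promoters of GRCm38.p6, Mylk and Des, and for Acta1, Actc1, Mmp10 and Il11, 4 genes that rose and were picked after their values were seen because a searched motif was found. Each run covers 250 bases before to 50 after the annotated start, on the gene's own strand, and capitals mark the motif. The motifs searched on both strands were the CArG box, the site bound by SRF, and TGANTCA, the site bound by AP-1 factors such as Junb.
Mylk, chr16:34784700-34784999, plus strand: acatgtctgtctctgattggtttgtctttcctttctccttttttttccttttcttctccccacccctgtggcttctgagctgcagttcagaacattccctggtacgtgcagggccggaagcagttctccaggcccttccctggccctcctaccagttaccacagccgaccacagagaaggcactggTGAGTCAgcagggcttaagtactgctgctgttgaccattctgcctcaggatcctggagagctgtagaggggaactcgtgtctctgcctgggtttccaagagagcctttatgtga
Des, chr1:75360042-75360341, plus strand: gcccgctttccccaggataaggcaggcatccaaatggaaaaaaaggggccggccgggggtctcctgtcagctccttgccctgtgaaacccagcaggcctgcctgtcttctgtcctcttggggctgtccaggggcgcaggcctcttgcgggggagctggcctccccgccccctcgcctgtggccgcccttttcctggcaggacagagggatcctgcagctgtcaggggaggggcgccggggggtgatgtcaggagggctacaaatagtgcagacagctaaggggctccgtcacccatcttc
Acta1, chr8:123894726-123895025, minus strand: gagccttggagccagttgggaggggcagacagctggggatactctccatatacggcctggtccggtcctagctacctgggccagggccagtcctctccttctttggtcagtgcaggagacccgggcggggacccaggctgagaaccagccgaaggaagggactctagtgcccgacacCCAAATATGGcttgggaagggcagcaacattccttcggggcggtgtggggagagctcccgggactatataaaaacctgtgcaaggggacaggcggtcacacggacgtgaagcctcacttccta
Actc1, chr2:114052826-114053125, minus strand: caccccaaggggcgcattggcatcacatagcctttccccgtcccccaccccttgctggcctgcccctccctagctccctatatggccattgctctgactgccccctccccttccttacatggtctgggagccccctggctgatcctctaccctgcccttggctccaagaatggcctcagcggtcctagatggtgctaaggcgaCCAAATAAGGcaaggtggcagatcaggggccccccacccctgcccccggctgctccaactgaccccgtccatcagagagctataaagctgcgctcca
Mmp10, chr9:7502092-7502391, plus strand: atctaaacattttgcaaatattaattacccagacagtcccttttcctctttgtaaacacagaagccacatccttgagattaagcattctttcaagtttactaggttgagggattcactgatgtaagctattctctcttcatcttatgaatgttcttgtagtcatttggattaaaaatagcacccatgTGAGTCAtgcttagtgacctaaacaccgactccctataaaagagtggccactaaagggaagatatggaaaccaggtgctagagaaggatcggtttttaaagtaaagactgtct
Il11, chr7:4778092-4778391, minus strand: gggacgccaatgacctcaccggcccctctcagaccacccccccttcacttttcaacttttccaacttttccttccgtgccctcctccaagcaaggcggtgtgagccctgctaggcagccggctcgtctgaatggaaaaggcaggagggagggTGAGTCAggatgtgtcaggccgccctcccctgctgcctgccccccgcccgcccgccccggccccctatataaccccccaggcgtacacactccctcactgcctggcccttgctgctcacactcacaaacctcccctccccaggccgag
The Acta1 and Actc1 windows hold a CArG box 73 and 47 bases before the start, and the Mylk, Mmp10 and Il11 windows hold TGANTCA 64, 63 and 98 bases before it. Il11 has 2 annotated starts, and the window of the other, at chr7:4782808-4783107, holds neither motif; nor does that of Des. A CArG box stood in 1.63% of all 32851 promoters and in 1.76% of those of 7503 measured genes, and in 13 of 371 genes that rose (3.5%) and 6 of 358 that fell (1.68%). TGANTCA stood in 7.81% of all promoters and 6.18% of those of measured genes, and in 47 of 371 genes that rose (12.7%) and 19 of 358 that fell (5.31%). These counts describe the letters in the windows; binding was not measured.

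Matrix genes went in both directions. The median of 32 measured non-collagen matrix genes was -0.09. Of these 4 rose and 8 fell, against 5.29% called higher and 5.05% called lower over all genes. Among those that fell were elastin and several small leucine-rich proteoglycans, which bind and space collagen fibrils; Bgn (biglycan), another of these, differed by 0.11. Lum (lumican) had a level of 4.35 in the 3-factor culture, where it was not detected, and 9.42 and 9.01 with PDGF-BB, against 8.93 in the vehicle and 10.65 in the control culture. Its fall was at least 10.3-fold, while another probe of the gene gave -1.25. Dcn (decorin) had 9.37 in the 3-factor culture and 13.27 and 13.04 with PDGF-BB, against 12.90 and 13.56 in the vehicle and control cultures, an 11.6-fold fall, with -1.66 to -4.07 for its other 3 probes. Ogn (osteoglycin) fell by 3.22, Fmod (fibromodulin) at least 1.35-fold and Prelp at least 1.29-fold. Eln (elastin) had 4.85 in the 3-factor culture and 9.05 and 7.84 with PDGF-BB, against 7.64 and 9.91 in the vehicle and control cultures, a fall of at least 4.21-fold. For Lum, Dcn and Eln the 3-factor culture was the lowest of the 5. The basement membrane gene Nid2 fell by 2.16 and Matn2 at least 1.72-fold.

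Has2, Vcan, Thbs2 and Fbln2 were the 4 that rose. Has2, a hyaluronan synthase, had a level of 8.07 in the 3-factor culture and 6.49 and 5.36 with PDGF-BB, against 5.70 in the vehicle and 6.22 in the control culture. Vcan (versican), a proteoglycan that binds hyaluronan, had 8.16 in the 3-factor culture and 5.87 and 5.64 with PDGF-BB, against 6.41 and 4.99 in the vehicle and control cultures. Thbs2, a thrombospondin, rose by 1.19 over vehicle but stood at 10.34 in the 3-factor culture and 10.36 in the control culture. Lox, Tnc and Sparc differed by 0.57, 0.37 and -0.16 and the basement membrane genes Lama1 and Hspg2 by 0.98 and 0.59, and none of these was called.

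Of 19 measured collagen genes, 2 rose and 4 fell, against 5.29% called higher and 5.05% called lower over all genes. The list's median was -0.05. Col3a1, a fibrillar collagen, had 6.80 in the 3-factor culture and 9.07 and 9.15 with PDGF-BB, against 9.47 in the vehicle and 9.18 in the control culture. Col6a1 and Col8a2 fell by 2.42 and 2.11, and Col6a2 at least 1.14-fold. Col7a1, the anchoring fibril collagen, had 10.46 in the 3-factor culture and 7.56 and 7.85 with PDGF-BB, against 8.34 and 6.55 in the vehicle and control cultures. It was highest in the 3-factor culture and lowest in the control culture. Col4a3 rose at least 1.83-fold. The fibrillar chains Col1a1 and Col1a2 differed by -0.26 and -0.87, and Col4a1, Col4a2 and Col5a1 by -0.05, 0.04 and 0.29, none of them called.

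Among proteases and their inhibitors, 3 of 17 measured genes rose and 4 fell, against 5.29% called higher and 5.05% called lower over all genes. The stromelysin gene Mmp10 had a level of 7.79 in the 3-factor culture and 5.33 and 4.88 with PDGF-BB, against 5.22 in the vehicle and 4.94 in the control culture. It was detected with the 3 factors and not with vehicle, a rise of at least 5.19-fold. Serpinb2, a plasminogen activator inhibitor, rose at least 1.76-fold. The metalloproteases Adamts1 and Adamts9 fell by 1.96 and 1.47 (another Adamts9 probe gave -0.69), and the plasminogen activators Plat and Plau by 1.35 and 1.09. Mmp2 and Mmp14 differed by 0.87 and 0.66. Of 10 measured integrin genes 3 rose and 0 fell, with a median of 0.88, or 0.12 with no detection filter: Itga11, the laminin-binding Itgb4 (2.94) and the fibronectin receptor chain Itga5 (1.16). Itgb4 had 9.81 in the 3-factor culture, 6.87 in the vehicle culture and 9.39 in the control culture, while Itga5 had 10.37 in the 3-factor culture, 9.21 in the vehicle culture and 7.95 in the control culture. The integrin median was 0.15 against the control culture.

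**Figure D5:**
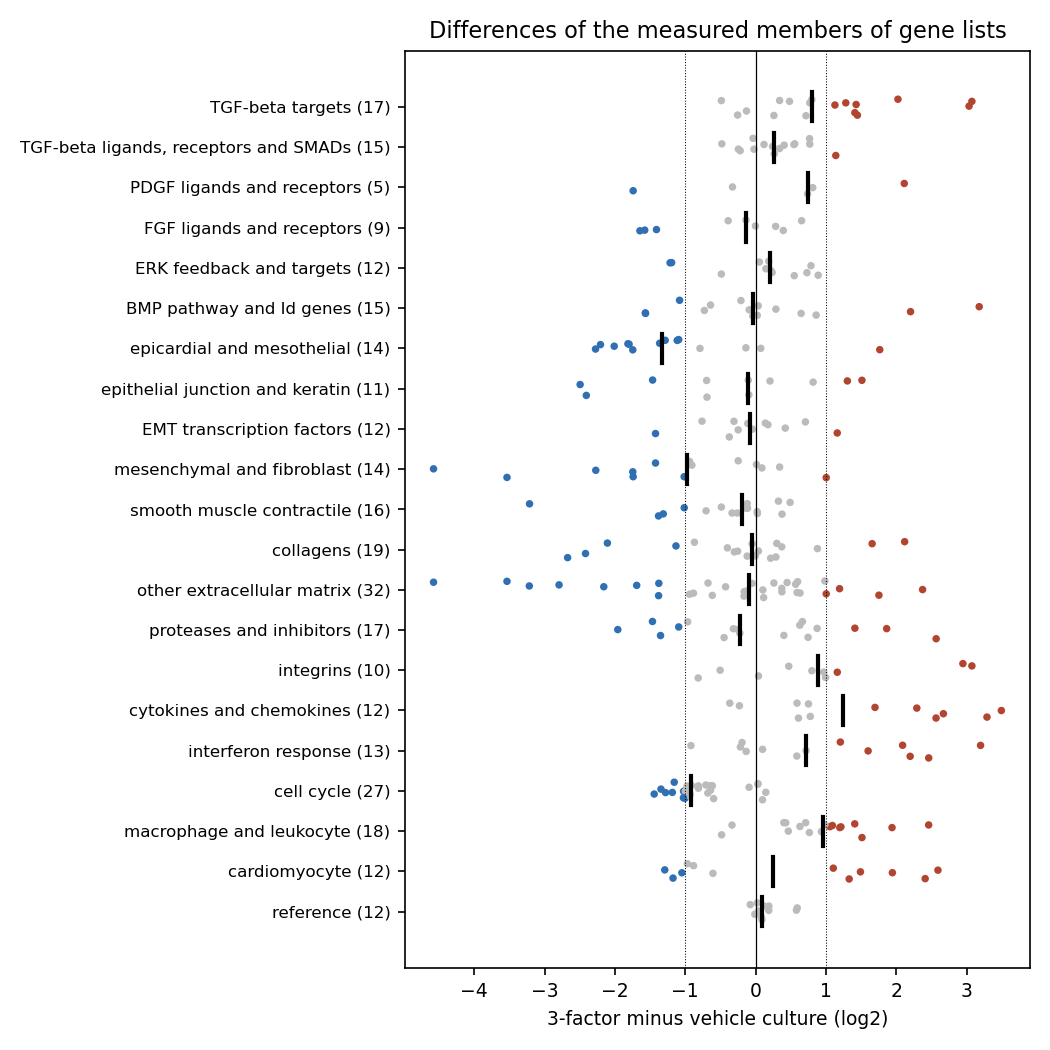
Difference in log2 level, 3-factor minus vehicle culture, of each measured member of 21 gene lists, with the number measured in brackets. Red points were called higher, blue points lower and grey points not called; black bars are list medians, dotted lines mark -1 and 1, and the TGF-beta target, cytokine, macrophage and integrin medians lie to the right of 0 and the epicardial, fibroblast and cell cycle medians to the left.

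Of 12 measured cytokine and chemokine genes 6 rose against vehicle and 0 fell, where 5.29% of all genes were called higher and 5.05% lower. The list's median of 1.24 came down to 0.63 with no detection filter. With the control culture in place of vehicle, 8 of 15 measured members were called higher and 6 lower, with a median of 1.08. Of all genes, 16.8% were called there. The members called lower included the chemokine genes Ccl2 (-2.64) and Ccl7 (-1.49). Il1b (interleukin 1 beta) had a level of 8.10 in the 3-factor culture and 5.53 and 5.40 with PDGF-BB, against 4.61 in the vehicle and 5.81 in the control culture, a rise over vehicle of at least 6.44-fold. Cx3cl1 (fractalkine) had 10.44 in the 3-factor culture and 7.74 and 7.08 with PDGF-BB, against 7.15 and 6.38 in the vehicle and control cultures. Il11, a cytokine induced by TGF-beta, had 7.82 in the 3-factor culture and 5.97 and 5.84 with PDGF-BB, against 5.54 and 5.22 in the vehicle and control cultures. The 3-factor culture was the highest of the 5 for all 3 genes. Tnf rose by 2.67 and Cxcl10 at least 3.23-fold. Saa3, an acute phase gene, had 7.95 in the 3-factor culture and 6.26 in the vehicle culture, but 12.61 in the control culture and 12.28 and 11.40 with PDGF-BB, so its direction depends on the untreated culture chosen. Il1b and Tnf are products of macrophages, whose marker list also lay higher with the 3 factors than with vehicle (summed level 81315.0 with the 3 factors and 37264.4 with vehicle); the part of those markers in the cytokine differences was not tested.

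Genes of the interferon response were higher against vehicle, with 6 of 13 measured genes risen, 0 fallen and a median of 0.72. Over all genes, 5.29% were called higher and 5.05% lower. Usp18, which removes the ubiquitin-like protein ISG15, had 8.10 in the 3-factor culture and 5.82 and 4.68 with PDGF-BB, against 4.91 in the vehicle and 4.92 in the control culture. Ifit3 had 8.35 in the 3-factor culture and 7.19 and 6.08 with PDGF-BB, against 5.89 and 5.95 in the vehicle and control cultures. Isg15 rose by 2.09, Rsad2 at least 2.93-fold, Oasl2 at least 1.94-fold and the immunoproteasome gene Psmb8 by 1.20. Against the control culture 4 of 13 were called higher and the list's median was 0.04. Of all genes, 16.8% were called there.

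Cell cycle genes were lower. Of 27 measured genes 8 fell and 0 rose, against 5.05% called lower and 5.29% called higher over all genes. The median difference was -0.91, with 23 of the 27 below 0. The mitotic genes Cdc20, Birc5, Tpx2, Prc1, Cdc25c, Top2a, Aurka and Kif11 were those that fell. Cdc20, an activator of the anaphase-promoting complex, had a level of 9.87 in the 3-factor culture and 10.86 and 11.13 with PDGF-BB, against 11.31 in the vehicle and 10.64 in the control culture. Birc5 (survivin) had 9.37 in the 3-factor culture and 10.58 and 11.06 with PDGF-BB, against 10.72 and 10.24 in the vehicle and control cultures. Both were lowest in the 3-factor culture. The cyclins Ccnd1 and Ccnd2 differed by 0.73 and 0.03, and the S-phase genes Mcm2, Mcm5 and Mcm6 by -0.81, -0.93 and -0.62. The list's median was -0.47 against the control culture, with 4 of 28 called lower and 1 higher. Of all genes, 16.8% were called in that comparison. With PDGF-BB alone for 24 h the list's median against the control culture was 0.39 and 0 of 27 were called. Over all genes 0.412% were called higher and 0.815% lower there, so few calls could fall among 27 genes.

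Smaller pathway lists are given by their called genes, beside 5.29% called higher and 5.05% called lower over all genes. Of 7 measured retinoic acid genes 2 rose and 2 fell. Crabp2, a retinoic acid carrier, rose at least 3.15-fold and the synthesis enzyme Aldh1a3 at least 1.46-fold. Aldh1a1 fell at least 3.07-fold and the receptor Rarb at least 1.63-fold, and Rarb differed by -0.44 from the control culture. Of 12 measured Wnt genes 2 rose (Rspo3, at least 2.73-fold, and Wnt2, 3.37-fold) and 4 fell, among them the Wnt antagonists Nkd1, at least 2.68-fold, and Nkd2, by 1.58. In the IGF system 1 of 13 measured genes rose and 2 fell. The binding protein gene Igfbp6 had a level of 5.78 in the 3-factor culture and 9.51 and 9.70 with PDGF-BB. It had 8.88 in the vehicle and 9.67 in the control culture. Igfbp3 fell by 1.28 while Igfbp2 rose by 1.34. Of 19 measured guidance genes 1 rose and 2 fell. Robo1, a receptor of Slit guidance proteins, rose by 1.77 (0.27 for another probe) and Slit3 fell by 1.37. Of 4 measured adipocyte genes 0 rose and 1 fell, the lipase gene Lpl, by 2.20. Of 19 measured glycolysis and hypoxia genes 1 rose and 2 fell, of 18 ER stress and amino acid genes 1 fell (Psat1), with a median of -0.46, and of 8 cholesterol synthesis genes none was called.

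Outside the lists, genes were named by the size of their difference, provided that they also differed by at least 1 in the same direction from the control culture; the 15 in each direction include Il1b, Acta1, Cx3cl1, Usp18, Itga11, Lum, Dcn and the globin genes Hba-a1, Hbb-y, Hbb-bt, Hbb-bs and Hba-x. Tnfrsf11b (osteoprotegerin), a decoy receptor of the TNF family, had a level of 10.65 in the 3-factor culture and 7.23 and 6.91 with PDGF-BB, against 6.28 in the vehicle and 6.63 in the control culture, a 20.7-fold rise over vehicle. Srpx2, a secreted sushi-repeat protein gene, rose at least 11.7-fold, with differences of 2.64 and 3.06 for its other probes. The G protein signalling regulator Rgs4 rose at least 9.31-fold, the serotonin receptor Htr2b at least 7.52-fold, the integrin-binding kindlin gene Fermt1 at least 8.11-fold and the syntenin gene Sdcbp2 at least 8.65-fold. For Rgs4 the 3-factor culture had 8.63, the PDGF-BB cultures 4.87 and 4.82, the vehicle culture 4.95 and the control culture 4.78, so that it stood apart from all of the others. Lurap1l rose by 3.16, Akr1c19 at least 4.94-fold, and Cd72 and Scimp, genes of leukocytes, by 3.22 and at least 4.63-fold. Cd72 had 10.55 in the 3-factor culture, 7.34 in the vehicle culture and 9.19 in the control culture.

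Of the genes that fell most, Ptn (pleiotrophin), a heparin-binding growth factor, had a level of 5.57 in the 3-factor culture and 10.15 and 9.44 with PDGF-BB, against 10.56 in the vehicle and 10.13 in the control culture, a fall of at least 31.9-fold. Stc1 (stanniocalcin), a secreted glycoprotein, had 4.29 in the 3-factor culture and 11.07 and 10.84 with PDGF-BB, against 9.08 and 10.90 in the vehicle and control cultures, a fall of at least 11.4-fold. Both were detected in each of the other 4 cultures and not in the 3-factor culture. Mgp, the matrix Gla protein that restrains calcification, had 10.04 in the 3-factor culture and 14.95 and 14.78 with PDGF-BB, against 13.44 and 14.89 in the vehicle and control cultures. Cyp2s1, a cytochrome P450, fell at least 17.1-fold and Fam180a at least 15.2-fold, with -4.18 for another probe of Fam180a. Lgi2 fell at least 5.60-fold, Ecrg4 at least 5.73-fold and Ildr2 by 3.27.

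PDGF-BB alone gave fewer calls. At 24 h, 40 of 9698 genes were called higher (0.412%) and 79 lower (0.815%) against the control culture, arrays of the other set. Under median centring 21 were called higher and 309 lower, so the count depends on the scaling. The 2 comparisons share no array, and differ in duration as well as in factors. Of the 486 genes that rose with the 3 factors, 422 were measured there, of which 9 were called higher (2.13%) and 7 lower, with a median difference of -0.10. The 9 were Ccl12, Col7a1, Hbegf, Inhba, Mfsd2a, Nrn1, Serinc2, Sfn and Sox9, 22.5% of the 40. Of the 464 that fell, 457 were measured with PDGF-BB, of which 14 were called lower (3.06%) and 10 higher, with a median of -0.06. The 14 included Lum, Eln, Fmod, Fam180a, Alcam, Sfrp2 and Agtr1a and made up 17.7% of the 79, and the 10 included 5 globin genes, Des and Krt19. Lum fell at least 10.3-fold with the 3 factors against vehicle and differed by -1.64 on the log2 scale with PDGF-BB against control, and Eln fell at least 4.21-fold with the 3 factors and differed by -2.07 with PDGF-BB. For Col7a1 the differences were 2.12 with the 3 factors and 1.30 with PDGF-BB. Sox9 had 1.16 with the 3 factors and 1.55 with PDGF-BB, while Mylk had -3.21 with the 3 factors and -0.75 with PDGF-BB, and Upk3b had -2.20 with the 3 factors and -0.27 with PDGF-BB.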

How the data were processed

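RNA was hybridized to Illumina mouse bead arrays, with 1 array for each pool of at least 3 cultures. The submitters' processing notes name BeadStudio 3.3, with no role given. The deposited non-normalized table holds a linear bead intensity and a detection p-value per probe, with no background subtracted by the authors, since no array holds an intensity of 0 or less. The authors' processed values, a linear intensity, were made in 2 sets of 4 arrays with identical maxima within a set, by a method not given in the sources used here, and served as an alternative.

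The non-normalized intensities were background-corrected with limma 3.58.1 in R 4.3.3 (neqc: normal and exponential model, background from the detection p-values, offset 16, quantile normalization over all 8 arrays) and put on the log2 scale; the deposited tables hold no log2 values of the authors. Of 45281 probes, 34885 have 1 gene symbol, 18 several and 10378 none in the platform annotation used; among probes without a single symbol 2167 were measured, 83 higher and 84 lower. A gene took the probe with the highest mean level over the 8 arrays. On the 3-factor array 14707 probes (32.48%) and on the vehicle array 15376 (33.96%) had a detection p under 0.01, and the number of arrays, 1 a side, limits the precision. An "at least" fold sets the brighter level against the lowest detected level on the dimmer array (5.57 in the 3-factor and 5.41 in the vehicle culture), or the gene's own level if higher.

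No test is possible with 1 array a side; the limma test used the vehicle and control cultures as a group of 2 and adjusted by Benjamini-Hochberg. The 37 gene lists hold 706 different genes, 644 with a probe, and lists share members. Members, lists and the rule for named genes (PDGF, FGF and TGF-beta ligands and receptors, up to 15 genes per direction by size that also differ by 1 from the control culture, list members beside their counts, and promoters of up to 5 called contractile genes) were chosen with earlier results of these data known. Tables and figures used Python 3.11.15, numpy 2.4.6, pandas 2.3.3 and matplotlib 3.10.9.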

Additional observations from a re-analysis of the deposited data

How the results depend on the processing

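The count of called genes, 950, stayed within 1.5 times under normalization over the 2 or the 4 arrays of the set, median centring, other detection filters and the mean of a gene's probes. It was 616 without background correction, which leaves background in the dim genes, 465 with the authors' processed values and 1633 with the control culture in place of vehicle; limma with the vehicle and control cultures as 1 group gave 0. For genes called higher it was 250 with the authors' values. For genes called lower it was 290 without background correction, 215 with the authors' values, 307 with detection required on both arrays and 982 against the control culture. PDGF-BB at 24 h minus the control culture gave 50 calls without background correction (22 higher, 28 lower), 330 with median centring (21 higher, 309 lower), 43 with the authors' values (21 higher, 22 lower) and 52 lower with detection on both arrays; the cause was not tested. Of 157 named genes that were called, 0 reversed under the processing alternatives, and 57 lost the call when detection on both arrays was required, 47 with the authors' values and 32 without background correction. Against the control culture 9 reversed: Adgre1 (-1.84), Cdc25c (0.42), Des (0.54), Krt19 (1.09), Lyz2 (-0.55), Myh11 (0.98), Oasl2 (-0.0083), Saa3 (-4.66) and Thbs2 (-0.022). Against the mean of both untreated cultures Adgre1 (-0.31) and Saa3 (-1.48) reversed; the cause was not tested. The sign of the cardiomyocyte median depended on the filter (0.25, and -0.61 with detection on both arrays), and the medians of the epithelial, BMP, collagen, matrix, protease, retinoic acid, endothelial, adipocyte and sex-linked lists also changed sign under at least 1 processing alternative. Without a detection filter the erythroid median was -2.57 and the PDGF median 0.32. Against the control culture the EMT factor (0.23), smooth muscle (0.36), immediate-early (0.44), epithelial (0.44), TGF-beta receptor (-0.08), guidance (-0.08) and macrophage (-0.18) medians had the opposite sign. No paired analysis was possible because each group has 1 array, and no replicate could be left out.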

Other observations

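Among called genes that stand in no list and outside the rule for named genes, chosen after their values were seen, several are known from activated myeloid cells. Fpr2, a formyl peptide receptor, had a level of 8.89 in the 3-factor culture, where vehicle had 4.32 and the control culture 9.13; its rise over vehicle was at least 11.1-fold, and it was not above the control culture. Acod1, the itaconate-forming enzyme, had 7.74 in the 3-factor culture, 4.51 in the vehicle culture and 6.97 in the control culture. The chemokine gene Ccl17 had 10.03 in the 3-factor culture, 7.56 in the vehicle culture and 6.16 in the control culture, and the costimulatory receptor Cd40 had 8.60 with the 3 factors, 5.90 with vehicle and 6.31 in the control culture. Il1a rose at least 2.95-fold over vehicle and the NF-κB inhibitor Tnfaip3 at least 4.39-fold.

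Hbegf, an EGF receptor ligand, had a level of 11.73 in the 3-factor culture, 9.27 in the vehicle culture and 8.55 in the control culture. Sphk1, which makes sphingosine 1-phosphate, had 11.34 with the 3 factors, 8.52 with vehicle and 8.31 in the control culture, and the collagen triple helix gene Cthrc1 had 9.60 with the 3 factors, 7.20 with vehicle and 5.93 in the control culture. The homeobox gene Meox1 rose at least 4.44-fold over vehicle. The histone genes H2ac4 and H4c8 rose by 2.06 and 2.33 while the cell cycle list had a median of -0.91.

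Among genes that fell, the peptidase gene Dpp4 had a level of 7.13 in the 3-factor culture, 10.30 in the vehicle culture and 10.46 in the control culture. The sphingomyelinase Smpd3 had 6.29 with the 3 factors, 9.54 with vehicle and 10.35 in the control culture. Vegfd, a ligand of VEGF receptors, had 6.08 with the 3 factors, 8.94 with vehicle and 8.02 in the control culture, and the angiotensin receptor Agtr1a fell at least 2.13-fold against vehicle. No explanation of these values was tested.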
